A study of Homo sapiens with 12 samples.

Results

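The genes described here are 10 known targets of the hypoxia-inducible factors (HIF): EGLN1, EGLN3, VEGFA, ADM, CA9, BNIP3, NDRG1, PPFIA4, SPAG4 and ANKRD37. They were taken by gene name from the table of 63677 genes, and each name matched 1 row. The set was drawn up with results of these same samples in view, so every level and difference of the 10 genes is given below as a description, without a test. The RNA came from Huh7, a cell line grown from a human liver carcinoma, in 4 groups of 3 samples. The groups were untreated cells, which received medium only, and cells treated for 6 h with graphene oxide (GO) at 400 µg/mL, with GO carrying the ginsenoside Rg3 (GO–Rg3) at 400 µg/mL, or with GO–Rg3 loaded with the topoisomerase II poison doxorubicin (GO–Rg3–DOX) at 100 µg/mL. All groups shared the cell line and the culture in plates. Cells given free DOX were not analysed here, so the effect of DOX cannot be told apart from that of the lower dose of carrier. By the authors' account, flake size and thickness also changed on loading with DOX, and these cannot be told apart from DOX either. The labels do not say whether replicates were separate cultures, so p-values measure the spread between these samples, which may be technical.

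HIF is a transcription factor of an oxygen-regulated α subunit (HIF1A or EPAS1) and a stable partner, ARNT. When oxygen and iron are at hand, prolyl hydroxylases such as EGLN1 and EGLN3 mark the α subunit, VHL binds the mark, and the ubiquitin ligase built on CUL2 sends the protein to the proteasome. When the hydroxylases are idle the α subunit lasts, pairs with ARNT and binds short elements with the core ACGTG or GCGTG near its targets. The targets bring in glucose and blood vessels, lower the use of oxygen and, in EGLN1 and EGLN3, turn the response down again. In liver cells the same pathway is known for the induction of erythropoietin. HIF is controlled mainly at the protein level, and protein was not measured in the data used here.

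To show where such cores lie in the promoters of the 10 genes, the window from 250 bases before to 50 after the RefSeq transcription start was read for the 7 genes found in the table used (RefSeq, GRCh38.p14). SPAG4, VEGFA and NDRG1 had no entry. The 5 windows below hold ACGTG on either strand. Letters run 5′ to 3′ along the gene, and capitals mark ACGTG or its reverse complement CACGT. Where both overlap they form the palindrome CACGTG, which is also the E-box read by other factors and was counted as 1 match.
PPFIA4 (chr1:203026241-203026540, strand +): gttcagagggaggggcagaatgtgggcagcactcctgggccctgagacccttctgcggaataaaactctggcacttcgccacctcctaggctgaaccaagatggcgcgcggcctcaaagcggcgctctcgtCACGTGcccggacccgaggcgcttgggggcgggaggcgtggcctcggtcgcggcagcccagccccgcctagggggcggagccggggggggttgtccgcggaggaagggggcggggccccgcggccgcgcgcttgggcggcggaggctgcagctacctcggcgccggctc
CA9 (chr9:35673678-35673977, strand +): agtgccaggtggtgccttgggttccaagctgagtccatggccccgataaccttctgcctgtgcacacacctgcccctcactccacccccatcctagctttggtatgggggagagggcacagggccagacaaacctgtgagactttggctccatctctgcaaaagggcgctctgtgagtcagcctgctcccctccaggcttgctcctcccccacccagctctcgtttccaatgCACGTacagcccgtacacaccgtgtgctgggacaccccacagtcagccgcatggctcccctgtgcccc
BNIP3 (chr10:131981874-131982173, strand -): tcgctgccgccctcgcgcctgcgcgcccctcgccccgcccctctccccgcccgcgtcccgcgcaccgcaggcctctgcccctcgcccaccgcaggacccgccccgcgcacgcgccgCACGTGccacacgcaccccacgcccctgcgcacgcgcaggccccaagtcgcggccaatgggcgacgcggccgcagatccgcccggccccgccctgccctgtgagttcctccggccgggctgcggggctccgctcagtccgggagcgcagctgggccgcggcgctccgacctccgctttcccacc
ANKRD37 (chr4:185396591-185396890, strand +): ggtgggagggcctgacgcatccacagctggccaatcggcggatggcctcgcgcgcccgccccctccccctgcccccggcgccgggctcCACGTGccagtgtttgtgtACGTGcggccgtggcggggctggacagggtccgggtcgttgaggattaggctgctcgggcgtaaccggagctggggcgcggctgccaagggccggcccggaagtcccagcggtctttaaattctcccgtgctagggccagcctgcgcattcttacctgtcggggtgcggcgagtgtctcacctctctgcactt
EGLN1 (chr1:231422238-231422537, strand -): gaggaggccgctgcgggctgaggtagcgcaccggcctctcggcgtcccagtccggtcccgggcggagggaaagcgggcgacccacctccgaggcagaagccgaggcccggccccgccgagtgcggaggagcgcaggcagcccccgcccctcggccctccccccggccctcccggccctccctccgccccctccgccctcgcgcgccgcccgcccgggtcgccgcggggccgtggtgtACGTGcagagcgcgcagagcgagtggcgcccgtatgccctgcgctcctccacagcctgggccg

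Counting upstream bases as negative, the first base of the match was at -119 in PPFIA4, -18 in CA9, -134 in BNIP3 and -13 in EGLN1. ANKRD37 held 2 matches, at -162 and -143. The other core, GCGTG or CACGC, occurred at 4 places in BNIP3, at 1 in PPFIA4 and at 1 in ADM. The windows of EGLN3 and ADM had no ACGTG. Over all 27305 promoters of that table, 21.6% held ACGTG on either strand and 36.3% held GCGTG, so a match is common. These letters are a description of the sequence, and binding was not measured.

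Counts per sample totalled 27802871 to 38877420. Of the 63677 genes, 17092 reached 10 counts in 3 or more samples and were fitted, among them 9 of the 10 HIF targets, CA9 being too low. Levels below are CPM, counts relative to the library total after TMM scaling, with mean ± SD over 3 samples, and differences are log2 fold changes with the standard error (SE) of the fit. Hepatocyte markers ALB, AFP, APOA1, APOB, TTR, SERPINA1, FGB and TF were all present, the lowest value in any sample being 169.6 CPM, and summed to 23514 to 23659 CPM in untreated, 14518 to 17657 in GO-treated, 18110 to 21854 in GO–Rg3-treated and 31343 to 36756 CPM in GO–Rg3–DOX-treated samples. AFP was the largest part of that sum, with a median of 12247 CPM in untreated and 5665 in GO-treated samples. SERPINA1 went the other way, from 1607 to 1866, with no overlap, and APOB from 1607 to 2069, with overlap. The other hepatocyte markers had lower medians after GO. The 4 markers of blood, T cells, endothelium and fibroblasts summed to at most 1.01 CPM in any sample, with the endothelial PECAM1 at 0. Mitochondrially encoded genes took 5.31% to 6.28% of counts in untreated samples, 12.1% to 24.1% after GO, 6.89% to 7.42% after GO–Rg3 and 12.8% to 19.4% after GO–Rg3–DOX. The highest shares were in GO replicate 1 and GO–Rg3–DOX replicate 1. The part of these shares and marker levels in the differences below was not tested. The median difference of the HIF targets against untreated cells, with those 2 libraries left out, was 0.80 for GO and -0.17 for GO–Rg3–DOX, against 0.70 and -0.25 with them.

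Across the 4 groups the HIF targets did not move as one block. After GO, all 9 fitted targets had a log2 fold change above 0 against untreated cells, from 0.09 in EGLN3 to 3.93 in PPFIA4, with a median of 0.70, where all genes had 0.01. The 3 GO samples lay above the 3 untreated samples in 7 of the 9 and below them in 0, against 28.6% and 29.9% of all genes tested. After GO–Rg3 at the same dose the median was -0.02, where all genes had 0.0. There 1 target lay above and 2 below the untreated range (9.12% and 16.6% of all genes). After GO–Rg3–DOX 8 of 9 targets were outside the untreated range, 4 above it and 4 below it. Of all genes, 75.3% were outside it either way, so this count does not set the targets apart. The targets' median was -0.25, where all genes had -0.06. These counts describe genes chosen on these samples, and nothing is read from them beyond the values. In bulk RNA, a change in the share of cells that carry a transcript and a change in its level per cell cannot be told apart.

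**Figure D1:**
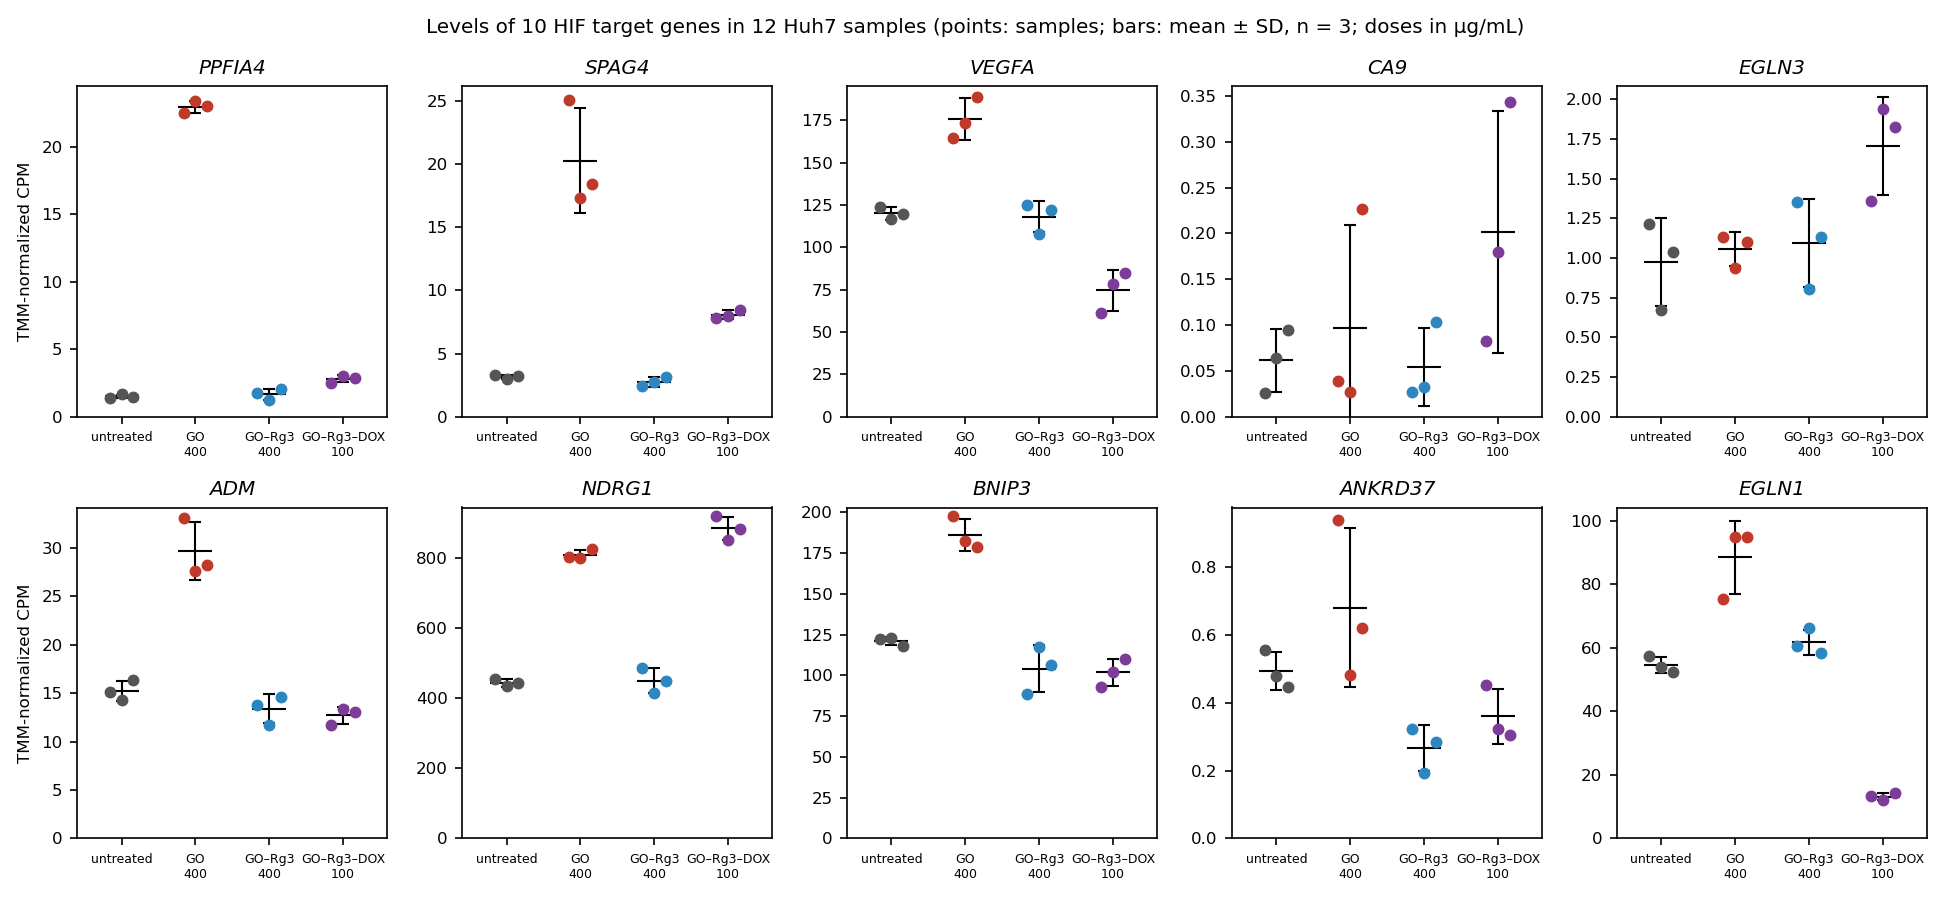
Levels of the 10 HIF target genes in the 12 Huh7 samples, in TMM-normalized CPM on a linear axis from 0, with points for samples and bars for mean ± SD (n = 3) and the dose in µg/mL under each group. PPFIA4 and SPAG4 stand apart in the GO samples, at means of 23.0 and 20.3 CPM, and EGLN1 is lowest after GO–Rg3–DOX, at 13.1 CPM.

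EGLN1 (PHD2) is the main oxygen sensor that hydroxylates HIF α subunits. It measured 57.4, 54.0 and 52.4 CPM in the untreated samples, 75.3, 95.0 and 95.0 after GO, 60.5, 66.1 and 58.5 after GO–Rg3, and 13.3, 11.9 and 14.1 after GO–Rg3–DOX. The groups were ordered GO–Rg3–DOX, untreated, GO–Rg3 and GO, and no 2 of these neighbours overlapped, although the gap between untreated and GO–Rg3 was 0.18 ± 0.11 (log2 fold change ± SE). The difference from untreated cells was 0.70 ± 0.11 for GO and -2.06 ± 0.12 for GO–Rg3–DOX, a 4.17-fold lower level. EGLN1 thus lay above the untreated level after GO and below it after GO–Rg3–DOX. A pseudogene by name, EGLN1P1, can share its reads. Exons of EGLN1 also overlap a gene on the same strand that was not counted, which leaves its counts uncertain.

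EGLN3 (PHD3), a sister hydroxylase that is itself a strong hypoxia target in many cells, was low throughout. Its levels were 0.671 to 1.22 CPM in untreated, 0.936 to 1.14 in GO-treated and 0.803 to 1.35 in GO–Rg3-treated samples, and these 3 groups overlapped. After GO–Rg3–DOX it reached 1.36 to 1.94 CPM, above every untreated sample, with a log2 fold change of 0.80 ± 0.25. For GO the difference was 0.09 ± 0.26, and it changed sign to -0.02 with library totals alone and to -0.09 at its lowest under any setting tried. EGLN3 rested on 21 to 46 counts per untreated sample and 33 to 54 after GO–Rg3–DOX, and that difference was 0.39 with library totals alone. By mean CPM, EGLN1 was lowest and EGLN3 highest after GO–Rg3–DOX. The lowest EGLN3 sample there, at 1.359 CPM, nearly met the highest GO–Rg3 sample, at 1.351 CPM.

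VEGFA, the growth factor that draws new vessels toward poorly supplied tissue, was the first of the secreted products. It measured 124.1, 116.5 and 119.7 CPM in untreated samples, 164.6, 173.5 and 188.8 after GO, 124.7, 107.7 and 122.2 after GO–Rg3, and 61.2, 78.5 and 84.6 after GO–Rg3–DOX. All GO samples were above and all GO–Rg3–DOX samples below the untreated ones, while GO–Rg3 and untreated samples overlapped. The log2 fold change was 0.55 ± 0.11 for GO and -0.68 ± 0.11 for GO–Rg3–DOX. Exons of VEGFA overlap a long non-coding RNA on the other strand, and since the use of strand in counting was not stated, its counts are uncertain to that extent.

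ADM encodes adrenomedullin, a peptide that widens vessels. Its levels were 15.1, 14.2 and 16.3 CPM in untreated samples, 33.1, 27.6 and 28.3 after GO, 13.8, 11.8 and 14.6 after GO–Rg3, and 11.7, 13.4 and 13.1 after GO–Rg3–DOX. GO stood alone at 1.95-fold the untreated level, a log2 fold change of 0.96 ± 0.12. Samples of the other treatments overlapped each other. Those of GO–Rg3–DOX lay just under the untreated range, at -0.26 ± 0.12.

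CA9, a membrane carbonic anhydrase that is widely used as a tissue marker of hypoxia, was barely detected. It had 1, 2 and 4 counts in the untreated samples, 1, 1 and 8 after GO, 1, 1 and 4 after GO–Rg3, and 2, 5 and 9 after GO–Rg3–DOX. All 4 groups overlapped, and at this depth no fold is given. Part of CA9 also overlaps exons of ARHGEF39 on the other strand.

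BNIP3 is a mitochondrial outer-membrane protein that marks mitochondria for removal by autophagy. It measured 122.17, 122.84 and 117.96 CPM in untreated samples, 197.5, 182.5 and 178.8 after GO, 88.6, 117.6 and 106.3 after GO–Rg3, and 93.1, 102.2 and 110.04 after GO–Rg3–DOX. The GO samples were above all the others, at 0.62 ± 0.11 against untreated. Both other treatments lay under the untreated samples, at -0.22 ± 0.11 and -0.25 ± 0.11, and overlapped each other, but the highest GO–Rg3 sample missed the lowest untreated sample by less than 1 CPM. BNIP3 has processed pseudogenes in the genome, which can share its reads.

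NDRG1, an iron- and stress-responsive gene linked to differentiation, measured 456, 434 and 444 CPM in untreated samples, 803, 801 and 825 after GO, 486, 415 and 450 after GO–Rg3, and 919, 853 and 883 after GO–Rg3–DOX. GO and GO–Rg3–DOX were both well above untreated cells, at log2 fold changes of 0.87 ± 0.09 and 0.99 ± 0.09, and the untreated and GO–Rg3 samples overlapped. The doses of these 2 treatments were 400 and 100 µg/mL, so their levels stand side by side without a comparison. Exons of NDRG1 overlap a long non-coding RNA on the same strand that was not counted.

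PPFIA4 encodes liprin-α4, a scaffold protein of the cell cortex. Its levels were 1.37, 1.66 and 1.48 CPM in untreated samples, 22.5, 23.4 and 23.0 after GO, 1.73, 1.22 and 2.06 after GO–Rg3, and 2.51, 3.05 and 2.90 after GO–Rg3–DOX. The GO samples were 15.3-fold above untreated cells (log2 fold change 3.93 ± 0.16) and spread by only 0.431 CPM (SD). Untreated and GO–Rg3 samples overlapped, and GO–Rg3–DOX lay between, at 0.91 ± 0.18.

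SPAG4, a SUN-domain protein of the nuclear envelope, was likewise highest after GO and next highest after GO–Rg3–DOX. It measured 3.28, 3.00 and 3.25 CPM in untreated samples, 25.05, 17.4 and 18.4 after GO, 2.40, 2.76 and 3.19 after GO–Rg3, and 7.78, 8.01 and 8.46 after GO–Rg3–DOX. GO replicate 1 was the highest of its group. The log2 fold change against untreated cells was 2.67 ± 0.15 for GO and 1.34 ± 0.16 for GO–Rg3–DOX, and the GO–Rg3 samples overlapped the untreated ones.

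ANKRD37, a small ankyrin-repeat protein, rested on 6 to 24 counts per sample. It ranged from 0.447 to 0.555 CPM in untreated, 0.481 to 0.939 in GO-treated, 0.193 to 0.324 in GO–Rg3-treated and 0.305 to 0.453 CPM in GO–Rg3–DOX-treated samples. Only the GO–Rg3 samples lay wholly below the untreated ones, at a log2 fold change of -0.86 ± 0.34. ANKRD37 overlaps exons of UFSP2 on the other strand, which leaves its counts uncertain.

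**Figure D2:**
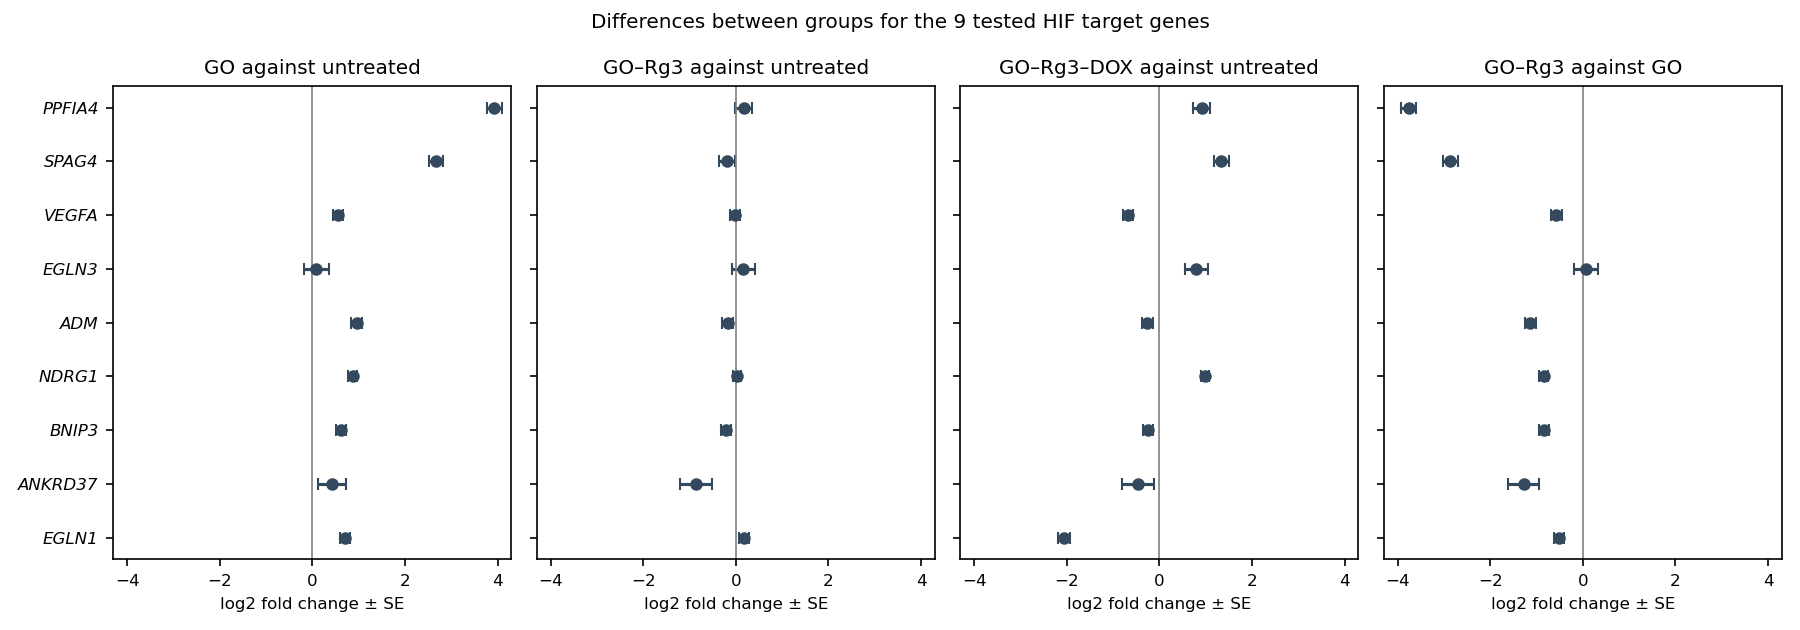
Log2 fold changes of the 9 fitted HIF target genes in the 4 comparisons, with bars for the standard error of the fit (n = 3 per group). All points lie at or right of 0 for GO against untreated cells (0.09 to 3.93), near 0 for GO–Rg3 apart from ANKRD37, on both sides for GO–Rg3–DOX, and left of 0 for GO–Rg3 against GO except EGLN3.

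The design sets GO–Rg3 beside GO at the same dose, but the carriers also differed, by the authors' account, in flake size, thickness and surface charge after the acid coupling step, and these cannot be told apart from Rg3 itself. With GO as the reference, 8 of the 9 fitted targets lay wholly lower in the GO–Rg3 samples and 0 wholly higher, where 18.9% and 20.1% of all genes did. The log2 fold changes ran from -3.76 ± 0.16 in PPFIA4 and -2.86 ± 0.16 in SPAG4, over -1.28 ± 0.33 in ANKRD37 and -1.14 ± 0.12 in ADM, to -0.52 ± 0.11 in EGLN1. NDRG1 was at -0.85 ± 0.09, BNIP3 at -0.84 ± 0.11 and VEGFA at -0.57 ± 0.11. EGLN3 was at 0.07 ± 0.26, with overlapping samples. This comparison shares the GO samples with that of GO against untreated cells, so the 2 sets of values are not independent.

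The size of several differences depended on how libraries were scaled. With library totals alone, the median over all genes moved from 0.01 to -0.11 for GO, from -0.06 to -0.47 for GO–Rg3–DOX and from -0.02 to 0.12 for GO–Rg3 against GO. Log2 fold changes against untreated cells also went up with the GC content of transcripts. The Spearman correlation was 0.43 for GO, 0.2 for GO–Rg3 and 0.36 for GO–Rg3–DOX across 16622 genes, which are not independent replicates. For GO–Rg3 against GO it was -0.43, and the targets' median there moved from -0.85 to -0.73 with an offset for GC content. GC content of the targets ran from the 26.7 percentile of tested genes in ANKRD37 to 91.8 in SPAG4, with PPFIA4 at 84.8. With an offset for GC content, PPFIA4 and SPAG4 were still at 3.63 and 2.28 after GO, but at 0.41 and 0.71 after GO–Rg3–DOX, and ADM was at -0.74 there. VEGFA was at 0.36 after GO with that offset. For GO–Rg3–DOX, library totals alone gave 0.50 for PPFIA4, 0.93 for SPAG4, -1.09 for VEGFA, 0.39 for EGLN3, -0.67 for ADM, 0.57 for NDRG1, -0.66 for BNIP3 and -0.88 for ANKRD37. EGLN1 was at -2.48 there.

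**Figure D3:**
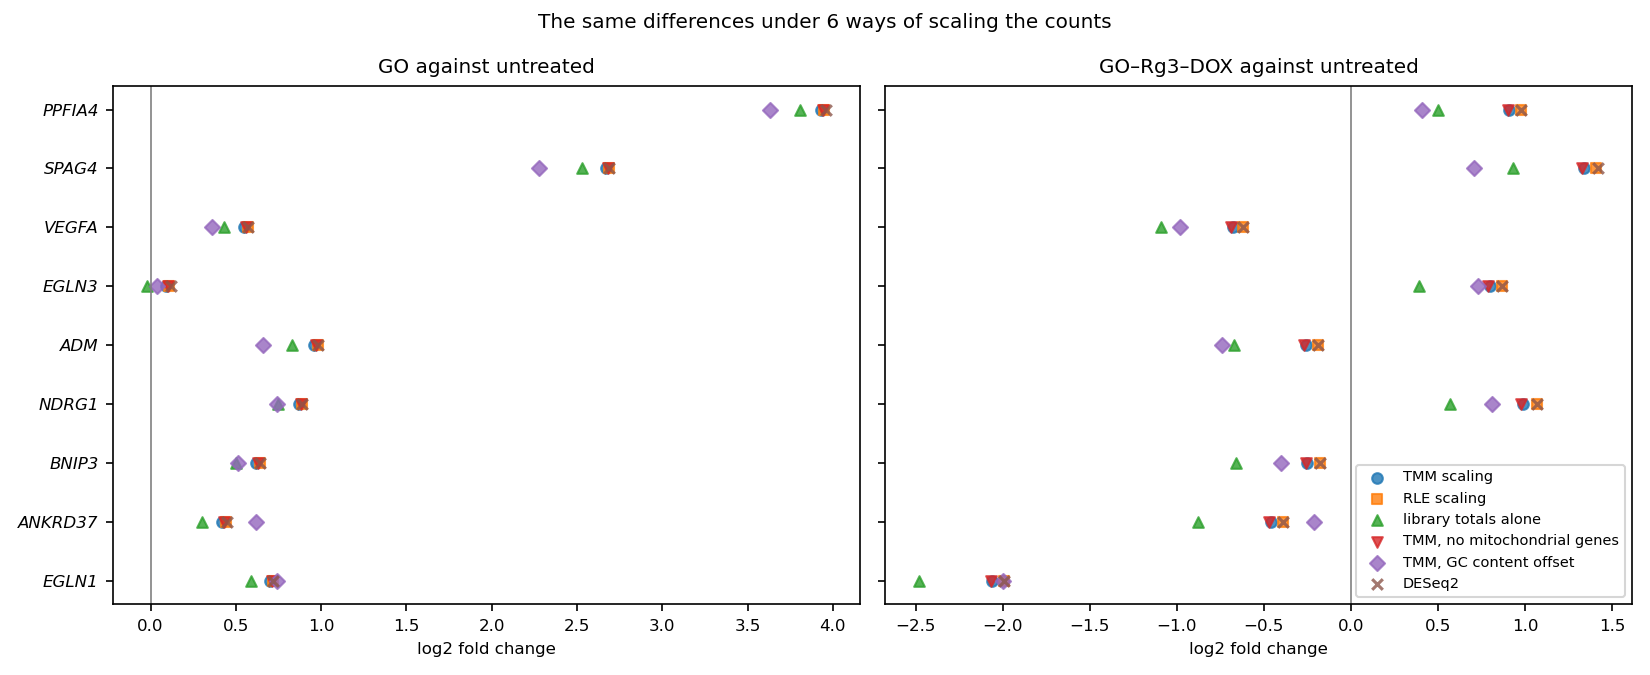
Log2 fold changes of the 9 fitted HIF target genes against untreated cells under 6 ways of scaling the counts. Markers of one gene lie close together for GO apart from the GC content offset and library totals, and EGLN3 crosses 0 there (-0.02 with library totals alone). For GO–Rg3–DOX library totals shift all 9 genes to the left.

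To set the 10 genes in their pathway, 91 other genes of the HIF system and its textbook targets were listed by role, and 81 of them were fitted. For these, edgeR's quasi-likelihood test was used with Benjamini-Hochberg adjustment over all 17092 genes, and a gene was called over- or under-expressed at an adjusted p below 0.01 with a log2 fold change beyond 1 in size. After GO, 22 of the 81 were overexpressed and 1 was under-expressed, against 3.84% and 2.62% of all genes tested. At the adjusted p alone, without the limit on size, the numbers were 50 and 6 (12.1% and 15.4% of all genes). The median log2 fold change of the list was 0.61. The list was also written with earlier results of these data known, so its direction is not independent evidence. The 1 under-expressed gene was PGF, a growth factor of the VEGF family, and this count was 0 without untreated replicate 1 and 2 without GO replicate 1.

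The HIF subunits did not move together after GO, and none was called. HIF1A fell by 0.84 on the log2 scale, with untreated samples at 253 ± 7.01 and GO samples at 141 ± 30.0 CPM (adjusted p = 0.00018 by edgeR), and EPAS1 (HIF2A) rose by 0.41 (adjusted p = 0.0024). ARNT was at 0.15 (adjusted p = 0.20). Of the 10 genes of oxygen sensing and degradation besides EGLN1 and EGLN3, none was called, but at the adjusted p alone EGLN2, HIF1AN (the asparagine hydroxylase FIH) and the ubiquitin ligase SIAH2 rose, by 0.51, 0.61 and 0.40. CUL2 and TCEB1 (elongin C), both parts of the VHL ligase, fell by 0.86 and 0.78 on the log2 scale. VHL, RBX1, TCEB2, SIAH1 and P4HTM did not pass, with VHL at 0.11 and RBX1 at -0.12.

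The 22 overexpressed genes all lay in the target groups, to be set beside a share of 3.84% over all genes tested. At that share, 0 overexpressed among the few subunit, sensing and coactivator genes does not set those roles apart. Differences between roles were not tested. In transcription and chromatin, 5 of 10 were overexpressed, among them RORA, a nuclear receptor (from 1.26 to 5.15 CPM, 2.04 on the log2 scale), and DDIT4, an inhibitor of mTORC1 filed in this group (1.87). Among angiogenic and secreted factors 5 of 9 were overexpressed, led by the cytokine LIF, which rose from 19.2 ± 0.841 to 110 ± 9.20 CPM (2.52, adjusted p = 2e-08 by edgeR), and stanniocalcin STC2 (2.12). Erythropoietin (EPO), which the rule for naming genes left out and which was picked after its values were seen, was among the 5, with untreated samples at 1.30 ± 0.238 and GO samples at 3.78 ± 0.123 CPM (1.54, adjusted p = 8.7e-05 by edgeR). In glucose transport and glycolysis 8 of 22 were overexpressed and 0 under-expressed, with PFKFB4, which sets the level of the glycolytic activator fructose-2,6-bisphosphate, at 2.81 (26.6 to 187 CPM) and enolase ENO2 at 2.61. BNIP3L, the sister of BNIP3 in mitophagy, was the 1 overexpressed of 7 mitochondrial genes (1.37). In matrix, redox folding and others 3 of 14 were overexpressed, among them MIR210HG, the host transcript of a hypoxia-induced miRNA, at 2.61, and the oxidase ERO1L at 1.10. None of the 3 pH genes and 3 coactivators or brakes was called, though 2 and 1 of them rose at the adjusted p alone.

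After GO–Rg3, 0 of the 81 genes were called in either direction by edgeR's quasi-likelihood test, against 0.0117% and 0.0468% of all genes. The count was 0 in both directions at the adjusted p alone too (0.0585% and 0.105% of all genes). At an unadjusted p below 0.05, 8 were higher and 8 lower. DESeq2 called 0 higher and 1 lower, with 11 and 7 at an unadjusted p below 0.05. A gene that misses the threshold is not shown to be unchanged.

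After GO–Rg3–DOX, 15 of the 81 pathway genes (18.5%) were overexpressed and 14 (17.3%) under-expressed, shares near those of all genes tested, 12.6% and 18.2%. At the adjusted p alone 32 rose and 26 fell (25.5% and 30.5% of all genes). The median was 0.16, where all genes had -0.06. The 15 became 9 without GO–Rg3–DOX replicate 1. The split was 20 to 12 with RLE scaling, 9 to 14 with the GC content offset and 5 to 21 with library totals alone.

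Of the 10 sensing and degradation genes, 2 were overexpressed and 4 under-expressed, where 12.6% and 18.2% of all genes tested were. At the adjusted p alone 2 rose and 6 fell (25.5% and 30.5% of all genes). Differences between roles were not tested. Of the 3 subunits 0 were called, and of the 3 coactivators or brakes 1 was under-expressed. At the adjusted p alone all 3 coactivators or brakes fell (30.5% of all genes). SIAH1 and SIAH2, ligases that remove hydroxylases, fell by 1.90 and 1.79 on the log2 scale, SIAH2 from 20.01 ± 1.08 to 5.77 ± 0.301 CPM (adjusted p = 2.7e-09 by edgeR). VHL fell from 116 ± 0.210 to 55.7 ± 2.69 CPM (-1.06) and CUL2 by 1.08. HIF1A, ARNT, EGLN2 and HIF1AN fell by less, at -0.59, -0.32, -0.58 and -0.57, while EPAS1 rose by 0.37. TCEB2 (elongin B) was overexpressed at 1.09. P4HTM, a membrane prolyl hydroxylase, was called too but went only from 1 to 3 counts per untreated sample to 11 to 16. TCEB1 was at -0.31 and RBX1 at -0.01, and neither passed. The coactivator EP300, an acetyltransferase that HIF recruits, fell by 1.24.

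Among the target groups after GO–Rg3–DOX, glucose transport and glycolysis had 6 overexpressed and 2 under-expressed of 22. To set beside this and the counts of the other roles, 12.6% of all genes tested were overexpressed and 18.2% under-expressed. The lactate exporter SLC16A3 was at 1.46 and phosphofructokinase PFKL at 1.33, while PFKFB3 fell from 167 ± 6.69 to 32.9 ± 2.27 CPM (-2.35) and PFKFB4 was at -1.19. The mitochondrial protease LONP1 was among 2 overexpressed of 7 mitochondrial genes (1.30). No gene of 10 in transcription and chromatin was overexpressed and 3 were under-expressed, led by the repressor BHLHE40 at -2.78 (63.4 to 9.21 CPM) and JMJD6, an iron-dependent oxygenase, at -1.31.

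Secreted factors after GO–Rg3–DOX were divided 2 to 2 of 9, where 12.6% and 18.2% of all genes tested were over- and under-expressed. ANGPTL4 (1.11) and the carrier protein IGFBP3 (1.04) were overexpressed, and PGF (-1.96) and endothelin EDN1 (-1.87) under-expressed. In matrix, redox folding and others, the chemokine receptor CXCR4 went from 0 to 4 counts per untreated sample to 139 to 220, at 7.25 ± 1.32 CPM, and the collagen-modifying PLOD1 was at 1.12. MIR210HG (-2.06) and INSIG2, a brake on sterol synthesis (-1.71), were under-expressed.

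Of the 22 genes overexpressed after GO, 2 (ANGPTL4 and SLC16A3) were also overexpressed after GO–Rg3–DOX and 3 (BHLHE40, MIR210HG and PFKFB4) were under-expressed there. Over all genes tested, 12.6% were overexpressed and 18.2% under-expressed after GO–Rg3–DOX, so these numbers do not stand out. Another 6 of the 22 passed the adjusted p alone there, and 11 did not pass. Both comparisons use the same untreated samples and the doses differ, so this count is only a way of setting the values side by side. PFKFB4 for example had means of 26.6 CPM in untreated, 187 in GO-treated and 11.7 CPM in GO–Rg3–DOX-treated cells.

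**Figure D4:**
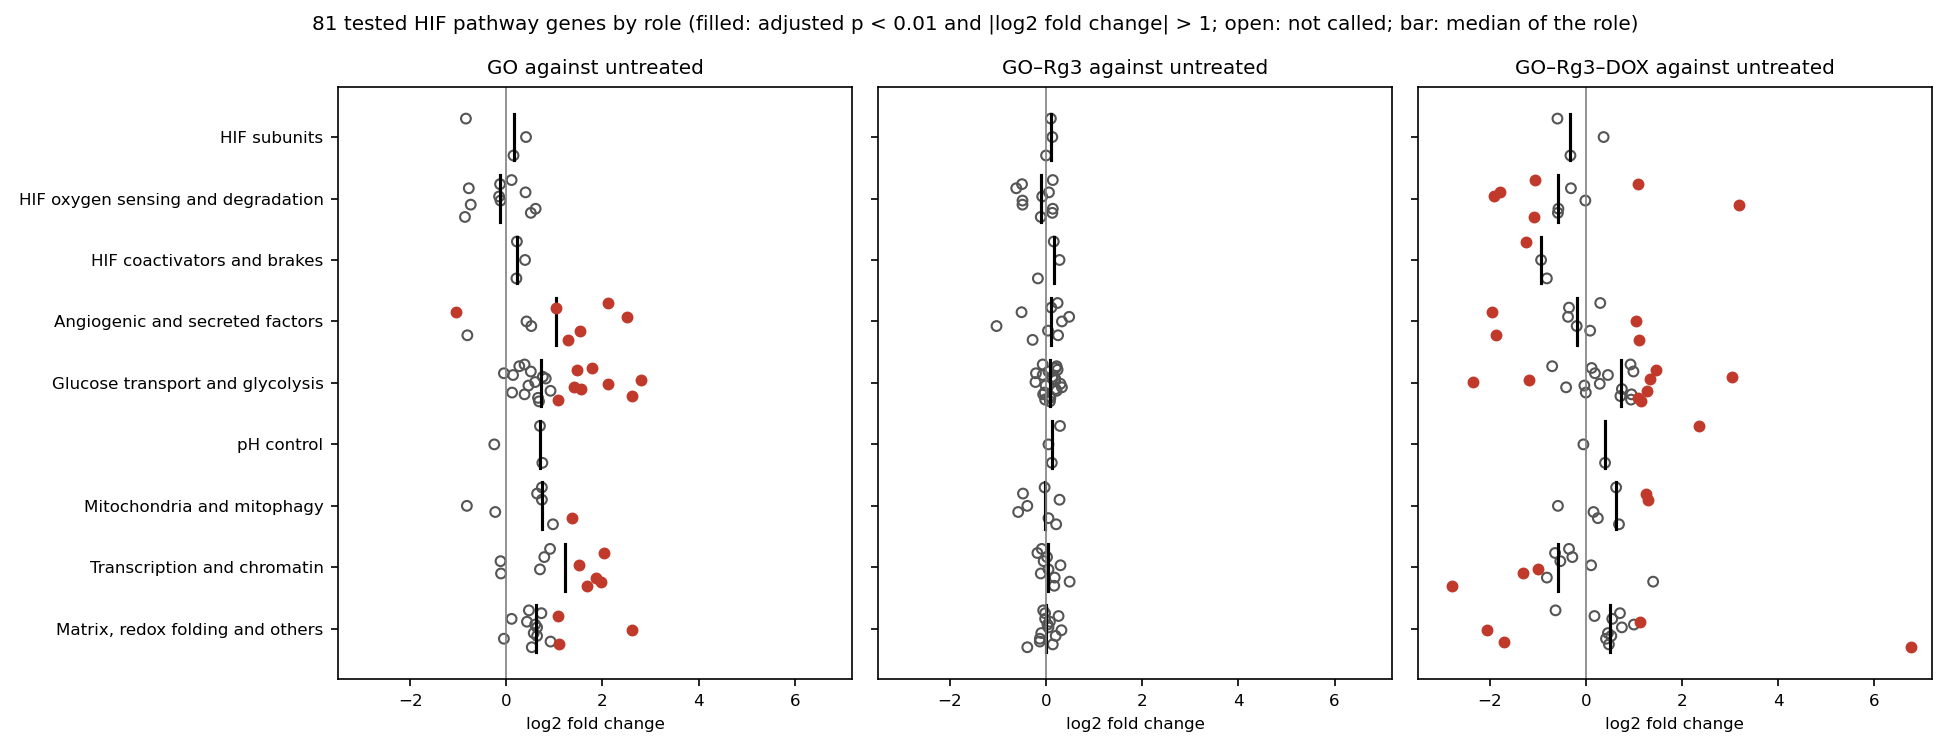
Log2 fold changes against untreated cells of the 81 fitted HIF pathway genes by role, filled where called at an adjusted p below 0.01 and beyond 1 in size, open otherwise, with a bar at the median of each role. Called points lie to the right after GO except PGF, there are 0 after GO–Rg3, and they lie on both sides after GO–Rg3–DOX, with CXCR4 farthest right.

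With GO–Rg3 set against GO directly, 20 of the 81 pathway genes were under-expressed and 1 was overexpressed, where 2.07% and 0.702% of all genes were. At the adjusted p alone 40 fell and 3 rose (6.25% and 7.34% of all genes). PFKFB4 was lowest at -2.62, followed among the named genes by ENO2 at -2.53, MIR210HG at -2.28, RORA at -2.22 and LIF at -2.05. STC2 (-1.88), DDIT4 (-1.70), BHLHE40 (-1.52) and BNIP3L (-1.32) were under-expressed too. INSIG2 was at -1.05. The 1 overexpressed gene was EDN1, at 14.7 ± 0.819 CPM after GO and 30.7 ± 1.06 after GO–Rg3 (1.06, adjusted p = 3e-05 by edgeR). HIF1A was at 0.94 (adjusted p = 0.00019), from 141 ± 30.0 to 272 ± 26.4 CPM, and CUL2 at 0.75, while HIF1AN was at -0.46. No other gene of the subunits or of oxygen sensing passed the adjusted p in this comparison.

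The genes whose profile lay closest to the mean of the HIF targets over the 12 samples were SH3D21 (Pearson correlation 0.974), FUT11 (0.972), TMEM74B (0.964), STC2 (0.963) and the glucose transporter SLC2A1 (0.962). SLC2A1 averaged 61.1 CPM in untreated, 210 in GO-treated, 70.3 in GO–Rg3-treated and 66.5 CPM in GO–Rg3–DOX-treated cells, and FUT11, a fucosyltransferase, 4.38, 18.1, 4.44 and 4.92 CPM. Taken singly, PPFIA4 was closest to SH3D21 (0.994), SPAG4 to PIK3IP1 (0.972), VEGFA to C14orf79 (0.987) and ADM to STPG1 (0.977). NDRG1 was closest to RAB37 (0.988), a small GTPase that averaged 18.8, 38.4, 19.8 and 44.1 CPM in the same order of groups. EGLN1 was closest to PIK3R1 (0.999), a regulatory subunit of phosphoinositide 3-kinase, which averaged 41.7, 69.5, 49.5 and 11.8 CPM. For EGLN3 the closest was CAPN10 (0.960), for BNIP3 RORA (0.955) and for ANKRD37 the mitotic kinase AURKB (0.903). These correlations rest on the differences between 4 groups in shared libraries and are a description of likeness alone.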

How the data were processed

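The authors took total RNA from Huh7 cells after 6 h of treatment, made stranded mRNA libraries, mapped the reads to GRCh37 in the NGI RNAseq pipeline and obtained counts for each Ensembl gene by featureCounts. What they deposited are these counts as they stood, unscaled and unfiltered. The annotation release and the use of strand in counting are not given in the sources used here. Overlapping genes and genes with pseudogenes are therefore uncertain.

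Samples were grouped by their labels, 3 in each of 4 groups. The 10 genes, the lists by role, the rule for naming genes and the tests were chosen with earlier results of these data known. A gene was kept when 3 or more samples reached 10 counts, the filter of the study's methods, which used DESeq2. Counts were scaled by TMM, and all 12 samples were fitted in 1 model without a replicate block by the quasi-likelihood test of edgeR 4.0.16 (R 4.3.3), with Benjamini-Hochberg adjustment over 17092 genes in each of 4 comparisons. Levels are CPM on effective library sizes, and correlations used log2 CPM with a prior count of 2. The SE is the log2 fold change divided by the square root of F. Reads carry no molecular identifiers and are not independent molecules. Tested on simulated counts for 16737 genes set up like GO against untreated, the fit recovered 196 of 200 genes changed by 1.5 on the log2 scale, with 0 false calls. The changed genes were drawn from those with a mean above 1 CPM. No trend with GC content and no mitochondrial shift was simulated, so these numbers do not measure errors in the real data.

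Named from the pathway list were every fitted subunit and oxygen sensing gene and, in each other role and comparison, up to 2 called genes per direction with the largest change and a mean of at least 1 CPM over the 6 samples. An item that this rule names is not reported here. The 5 genes closest to the targets' mean and the closest gene to each target were named too. Lengths, GC content and overlaps came from an annotation lifted to GRCh37, which gave GC content for 97.3% of the genes. The names ENO2, TPI1, PGK1, TGFA and PTPRC each matched 2 rows of counts. For these the row that the annotation holds under that name was used and the other was set aside. Promoters came from RefSeq on GRCh38.p14, and no coordinate was moved between builds. Alternatives were RLE scaling, library totals alone, no mitochondrial genes, no low-count filter (35604 genes), 10 counts in every sample (13706 genes), DESeq2 1.42.0, a replicate block, a GC content offset (loess, span 0.5) alone or with that block, a fit of the 6 compared samples only, an adjusted p below 0.05 and the removal of single samples. Leaving out the 2 libraries with the most mitochondrial counts was added after seeing the data.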

Additional observations from a re-analysis of the deposited data

How the results depend on the processing

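The counts of called pathway genes and the fitted differences of the targets were recomputed under the alternatives that apply to them. The number of pathway genes overexpressed after GO stayed at 18 to 22 and the number under-expressed in GO–Rg3 against GO at 17 to 22. The pathway genes under-expressed after GO were 0 to 2 with single samples left out, and 2 without the 2 libraries with the most mitochondrial counts, against 1. Under-expressed pathway genes after GO–Rg3 were 0 to 1 with single samples left out (1 without GO replicate 1), and 1 with no low-count filter, with DESeq2, with the GC content offset and replicate block together, without those 2 libraries and at an adjusted p below 0.05, against 0. For GO–Rg3–DOX the 15 overexpressed pathway genes were 5 with library totals alone, 9 with the GC content offset, 9 with it and the replicate block, and 9 to 16 with single samples left out. The median of the HIF targets there was -0.66 with library totals alone and 0.31 with 10 counts in every sample, which leaves out ANKRD37, and -0.26 to -0.17 with single samples left out, against -0.25. The 1 pathway gene overexpressed in GO–Rg3 against GO was 2 with library totals alone and 1 to 2 with single samples left out (2 without GO replicate 2). With single samples left out, the targets' median ran from 0.64 to 0.80 for GO, from -0.06 to 0.04 for GO–Rg3 and from -0.93 to -0.85 for GO–Rg3 against GO. Of the recomputed differences of single targets, 766 moved by less than the spread between replicates and 58 by more, and sign changes occurred only where the main value was under 0.20 in size. The cause of these shifts was not tested. Some fits also held fewer targets or samples. CA9, ANKRD37, EGLN3 and P4HTM rested on few counts.

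The labels repeat replicate numbers across groups without saying what they stand for. Deviations from group means of same-numbered samples correlated at 0.092 on average over 18 pairs (-0.024 to 0.253, 7 of them above 0.1). The average over the 36 other pairs was -0.045. Deviations sum to 0 within each group, so that average largely follows from the first and adds little. Every sample was closest to its own number in 1 of 6 pairs of groups. The numbers were not taken as pairs. With the replicate block, 22 pathway genes were overexpressed and 1 was under-expressed after GO, against 0 and 0 in the GO–Rg3 group and 15 and 14 in the GO–Rg3–DOX group, and the targets' medians were 0.69, -0.02 and -0.25. The block moved none of these counts by over 1.5 times.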
